A study of Mus musculus with 12 samples.

Results

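The main histone gene cluster of the mouse lies on chromosome 13 in a centromeric and a telomeric part, and its CpG islands were probed on a methylation array in 4 embryonic stem (ES) cell lines. Members were all probes (control spots excluded) placed on build mm9 within chr13:21750000-22140000 or chr13:23500000-23900000. These windows held 134 of the 88737 probes, of which 52 were centromeric and 82 telomeric. They were set against the other 3188 probes of chromosome 13. The 4 lines CC9mus, CC9spretus, CC9dunni and CC9pahari share the chromosomes of CC9.3.1, which came from a 129SvEv-Gpi1c(129S6) embryo, and each carries the mtDNA of the mouse species in its name, that of CC9mus being from Mus musculus. All were made by fusing enucleated cytoplasts to CC9.3.1 cells depleted of mitochondria, so that CC9mus controls for the fusion. Cells were grown with LIF on mitomycin C-treated feeders and then for 48 h without feeders, and no group received any other treatment. There were 3 arrays per line and 12 in all. Whether each line is a single clone, and whether replicates were separate cultures, is not given in the sources used here, so p-values measure only the spread between arrays, which may be technical.

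Histone genes of this cluster encode the replication-dependent H1, H2A, H2B, H3 and H4 proteins, which package newly made DNA during S phase. Their mRNAs end in a stem-loop in place of a poly(A) tail, and their transcription is coupled to the cell cycle through NPAT at the histone locus body. ES cells divide rapidly and use these genes heavily. Many H2A and H2B genes are arranged head to head and share a short promoter. Promoter CpG islands of active genes usually carry little 5-methylcytosine (5mC). In methylated DNA immunoprecipitation (MeDIP), an antibody to 5mC enriches methylated fragments, so a fragment with little 5mC or few CpGs gives a low yield.

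RefSeq annotation of build GRCm38.p6 placed 56 histone genes in this cluster on chromosome 13, of which 54 were protein-coding. They comprised 6 H1, 15 H2A, 15 H2B, 9 H3 and 11 H4 genes. The widest gap between neighbouring histone genes left 24 genes on the centromeric side and 32 on the telomeric side, and held 75 Vmn1r vomeronasal receptor genes and pseudogenes. The centromeric side also held 31 tRNA genes. Other protein-coding genes on the telomeric side included Hfe, an iron regulator, and the Slc17a1 to Slc17a4 transporter genes. The array positions are on mm9, another build, and the files pair no probe with a gene. No probe was therefore assigned to a histone gene, and the annotation only describes what the cluster contains.

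One promoter each of an H1, H2A, H3 and H4 gene is shown to give the sequence before histone genes of this cluster. Whether the probed islands contain these promoters is not known here, since builds differ. The 250 bases before the start site were taken from RefSeq, GRCm38.p6, are written 5′ to 3′ on the strand of the gene, and have each CG in capitals. H1f5 is at chr13:21780626-21780875 on the minus strand, H2ac13 at chr13:21716162-21716411, H3c10 at chr13:21717378-21717627 and H4c11 at chr13:21734784-21735033, the last 3 on the plus strand.
H1f5: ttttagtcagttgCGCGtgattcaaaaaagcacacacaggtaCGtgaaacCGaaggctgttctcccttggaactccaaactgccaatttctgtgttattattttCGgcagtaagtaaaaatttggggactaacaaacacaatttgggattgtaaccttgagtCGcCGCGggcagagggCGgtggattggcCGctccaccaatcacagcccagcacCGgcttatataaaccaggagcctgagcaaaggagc
H2ac13: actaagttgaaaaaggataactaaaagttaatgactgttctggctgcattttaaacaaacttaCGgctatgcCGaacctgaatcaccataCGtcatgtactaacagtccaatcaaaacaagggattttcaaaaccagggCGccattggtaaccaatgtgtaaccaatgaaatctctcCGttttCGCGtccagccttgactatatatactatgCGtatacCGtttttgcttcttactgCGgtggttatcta
H3c10: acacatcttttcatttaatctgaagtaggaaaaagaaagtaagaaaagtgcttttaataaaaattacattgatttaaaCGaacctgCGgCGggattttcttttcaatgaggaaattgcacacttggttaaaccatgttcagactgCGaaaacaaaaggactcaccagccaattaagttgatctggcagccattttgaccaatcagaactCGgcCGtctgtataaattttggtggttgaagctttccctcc
H4c11: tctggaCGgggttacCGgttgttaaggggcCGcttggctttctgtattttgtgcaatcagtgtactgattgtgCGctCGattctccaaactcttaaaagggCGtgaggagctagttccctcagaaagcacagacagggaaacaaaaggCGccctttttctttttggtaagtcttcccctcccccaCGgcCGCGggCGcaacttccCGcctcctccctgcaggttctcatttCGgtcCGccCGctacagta
The H2ac13 window shared 228 bases with that of H2bc13 on the opposite strand, a head-to-head pair. These 4 windows held 11, 10, 6 and 15 CG dinucleotides. Over the 51 histone genes with a promoter sequence the median was 9 (range 2 to 27), against 6 over 27025 genes. The letters CCAAT, on either strand, occurred in 84.3% of the histone promoters and in 34.5% of all promoters. TATAAA occurred in 51.0% against 12.97%. ATTTGCAT, the octamer, occurred in 10 of 51 (19.6%, against 1.61% of all) and only in H2A (5 of 13) and H2B (5 of 14) promoters. These matches describe letters in the window and are no evidence of binding or methylation.

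The array covered the cluster sparsely. The 134 probes of 45 to 60 bp formed 39 islands, an island being a run in which neighbouring probes lie no more than 1000 bp apart, numbered 1 to 39 along the chromosome. Of these, 15 were centromeric, between 21808015 and 22135037, and 24 telomeric, between 23515296 and 23855861. The parts were 1380258 bp apart, with 18 probes of the array between them that are no members. Cluster islands had a median of 3 probes and at most 9, while the 499 other islands of chromosome 13 had a median of 6. A single probe made up 5 cluster islands (12.8%), against 1.80% of the others.

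On every array the cluster had a lower IP/input ratio than the rest of chromosome 13. With another background correction (normexp, run without the dye normalisation), however, this held on only 3 of 12 arrays. The measure was the log2 ratio of the IP to the input signal, centred on the median of its array. In CC9mus the cluster medians were −0.25, −0.69 and −0.85. The CC9spretus medians were −1.32, −0.90 and −0.32. In CC9dunni they were −0.51, −0.63 and −0.50, and in CC9pahari −0.50, −0.74 and −0.48. CC9spretus replicates 1 and 2 were the lowest and CC9mus replicate 1 the highest, so that the 4 lines overlapped. The medians of the other chromosome 13 probes lay between −0.09 and 0.00 on all 12 arrays.

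**Figure D1:**
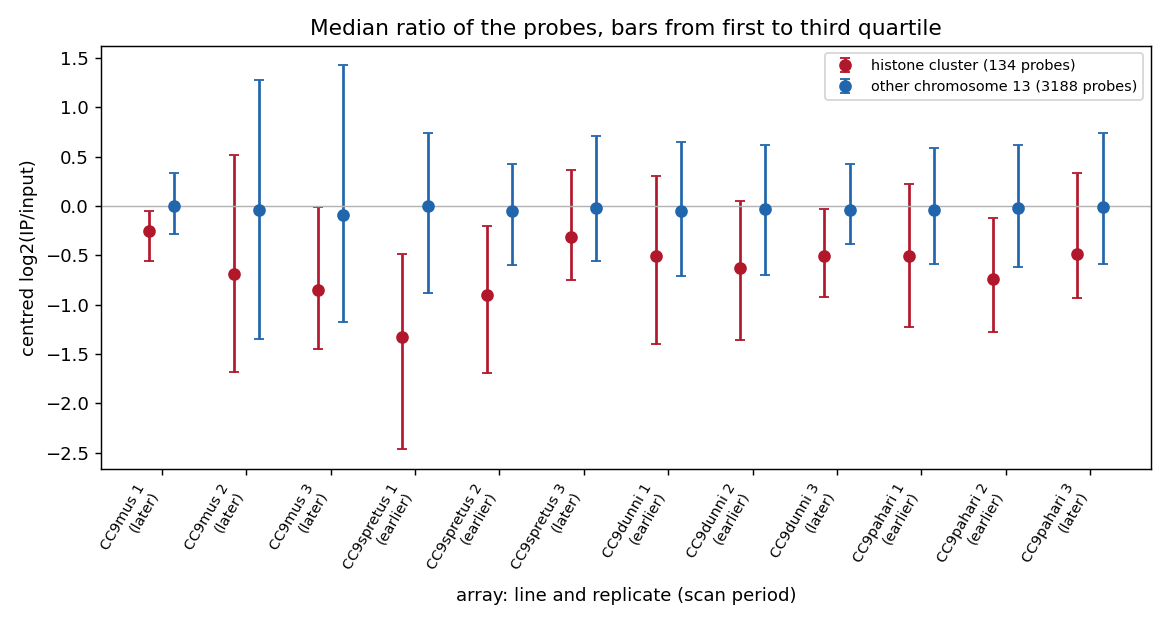
Median centred log2(IP/input) of the 134 cluster probes (red) and the 3188 other chromosome 13 probes (blue) on each of 12 arrays, with bars from the first to the third quartile. The cluster median lay below the other median on 12 of 12 arrays, by 0.25 to 1.33 as absolute differences, and on 3 of 12 with normexp background correction.

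The gap of the cluster median to the other chromosome 13 median was −0.55 ± 0.26 (SD, n = 3) in CC9mus and −0.83 ± 0.52 in CC9spretus. It was −0.50 ± 0.08 in CC9dunni and −0.55 ± 0.15 in CC9pahari. The 4 line means lay within a range of 0.32, while the arrays of single lines ranged over 1.03 in CC9spretus, 0.50 in CC9mus, 0.26 in CC9pahari and 0.13 in CC9dunni, and the lines overlapped. The differences between lines in this gap were not tested. The array files give scan days, which fall in an earlier period (replicates 1 and 2 of CC9spretus, CC9dunni and CC9pahari) and a later one (all CC9mus arrays and replicate 3 of the others). The gap ranged from −1.33 to −0.46 in the earlier and from −0.76 to −0.25 in the later period. All CC9mus arrays were scanned on a day with no other line, so line and day cannot be told apart there. Both parts of the cluster had negative gaps on 12 of 12 arrays, with a mean over arrays of −0.52 ± 0.34 (SD, n = 12) in the centromeric and −0.66 ± 0.31 in the telomeric part.

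The size and sign of this gap depended on the processing of the signals. With normexp background correction, in place of that of the scanner software, its mean was 0.11 in CC9mus, −0.03 in CC9spretus, 0.12 in CC9dunni and 0.14 in CC9pahari. Normexp was run on median spot and background signals with an offset of 50 and without dye normalisation, so more than the background correction changed. Its ratios were compressed. Their SD over probes, as a median over arrays, was 0.30 in the cluster and 0.58 in the other probes, against 1.04 and 1.14. With each dim IP signal raised to the lowest IP signal well above background of its array, the gap lay below 0 on 8 of 12 arrays. This leaves the input as it was and can only raise dim ratios before centring. Dim IP was more frequent in the cluster on 12 of 12 arrays, so by its construction this setting tends to raise the cluster. With the 80 probes kept whose input was well above background on all arrays, the gap lay below 0 on 12 of 12 arrays, between −1.06 and −0.29.

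The IP signal was near background at many cluster probes. It was well above background for 24.6% to 88.8% of cluster probes per array, against 73.2% to 98.0% of the other chromosome 13 probes, and the cluster share was lower on 12 of 12 arrays. The extremes were CC9mus replicate 2 and CC9mus replicate 1, so this share varied more within CC9mus than between the lines. The input was well above background for 64.2% to 97.8% of cluster probes against 92.0% to 99.8%. Only 23 cluster probes (17.2%) had an IP signal well above background on all 12 arrays, against 65.7% elsewhere on chromosome 13, and 12 (8.96%) had one on no array, against 1.00%. Cluster probes were also longer, with a median of 53 against 45 bp. The part of probe length, CpG content or signal level in the low ratios was not tested.

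**Figure D2:**
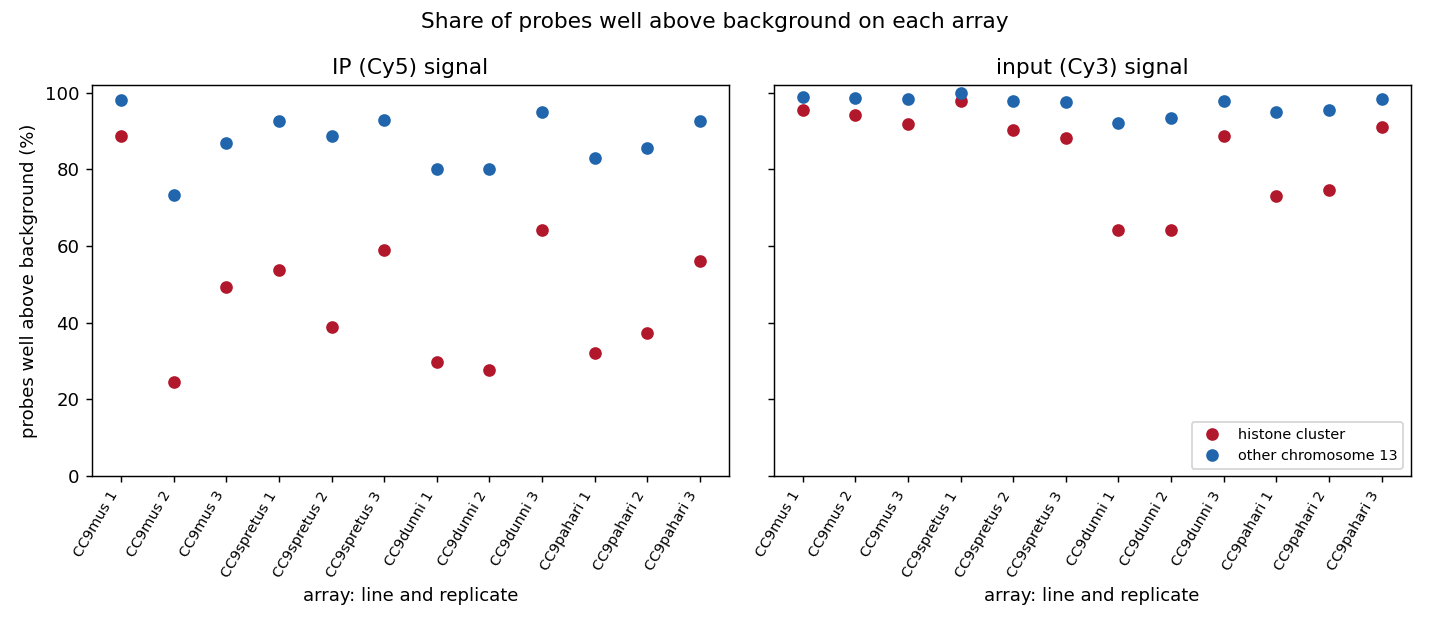
Percentage of probes with an IP (left) and an input (right) signal well above background on each array, for the histone cluster (red) and the other chromosome 13 probes (blue). The IP share of the cluster lay between 24.6% and 88.8% and was below that of the other probes on every array.

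Most islands of the cluster were low on these ratios, and a few stood at the level of the rest of the chromosome. Averaged over the lines, 35 of 39 islands (89.7%) had a mean ratio below 0, against 51.7% of the other chromosome 13 islands, and 12 (30.8%) were below −1, against 1.80%. With normexp, 15 of 39 (38.5%) were below 0, against 51.7%, and with dim IP raised to the floor 21 (53.8%), against 47.1%. Under each of these settings 0 of 39 were below −1, against 1 and 6 of the 499 others. The median island was at −0.73, against −0.02. Below the median of the other chromosome 13 probes on all 12 arrays were 16 islands (41.0%, against 14.4%) and 42 probes (31.3%, against 17.1%). Above it on all arrays were 8 probes (5.97%, against 21.5%). CC9spretus had the lowest line mean in 21 of 39 islands and the highest in 1. Without its replicate 1 it had the lowest in 14 and the highest in 5, and without its replicate 3 the lowest in 29 and the highest in 0. CC9pahari had the highest in 15 and CC9mus in 13. How often a line was lowest or highest among the other islands is not given here. The median island difference of CC9spretus to the mean of the other 3 lines was −0.29, against −0.027 over all islands. Without CC9spretus replicate 1 this difference was −0.058, against 0.030, and without its replicate 3 −0.74, against −0.12.

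**Figure D3:**
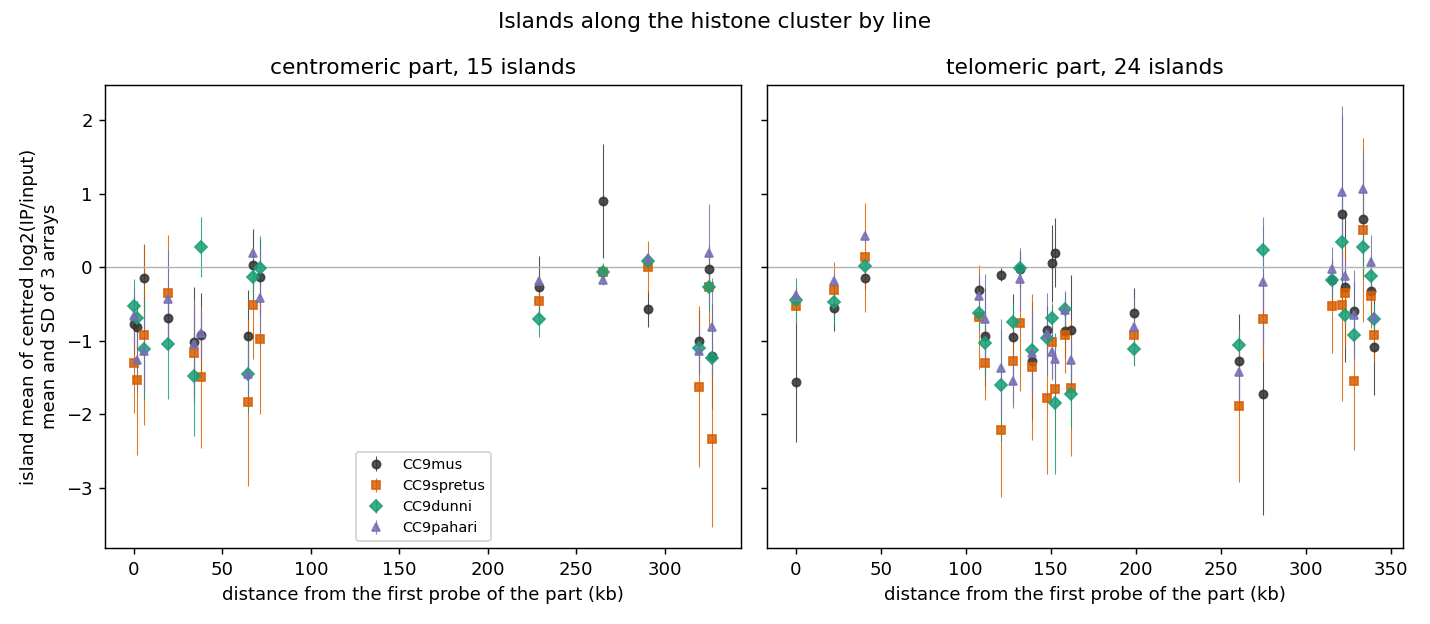
Island means of centred log2(IP/input) against the distance from the first probe of the centromeric (15 islands) and the telomeric part (24 islands), as mean and SD of 3 arrays per line. Of 39 islands, 35 had a mean over the lines below 0, and islands 11, 18, 34 and 37 were above 0. IP was well above background for 0% of the spots of island 34 and 25% of those of island 37. With normexp 15 of 39 were below 0.

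The 5 lowest islands of at least 3 probes were islands 7, 31, 29, 13 and 25, with means over the lines of −1.42, −1.41, −1.37, −1.22 and −1.13. Each was below the median of the other chromosome 13 probes on 12 of 12 arrays. Island 7 (chr13:21872340-21872645, 3 probes) had ratios of −0.31, −0.93 and −1.55 in CC9mus and of −2.68, −2.28 and −0.54 in CC9spretus. It had −1.53, −1.94 and −0.89 in CC9dunni and −1.70, −1.64 and −1.03 in CC9pahari. The arrays of all lines overlapped. IP was well above background for 27.8% of the spots of island 7, and for 16.7% to 38.3% of those of the other 4.

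The 5 highest islands of at least 3 probes were islands 11, 18, 12, 14 and 38, with means of 0.15, 0.11, −0.09, −0.09 and −0.19. In islands 11, 18 and 12 the IP was well above background for 77.1%, 73.3% and 75.9% of spots, and in islands 14 and 38 for 16.7% and 46.9%. Island 37 had a higher mean of 0.63 but only 2 probes, with IP well above background for 25% of spots. Island 34, of 1 probe, had a mean of 0.39 with IP well above background for 0% of spots, so its ratios were not measured. Island 14 (chr13:22132818-22133405) held the only cluster probe with a line mean above 2. That probe, A_68_P28876022, read 0.79, 3.77 and 2.00 in CC9mus and from 0.61 to 2.77 in the other lines. Its IP and its input were well above background on none of the 12 arrays, so these ratios have no measured signal on either side.

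Within the islands with most probes, single probes ranged from well below to well above 0. Island 12 (chr13:22097663-22099089, 9 probes) had 2 neighbouring probes that were positive in every line, A_68_P28875767 at 0.97 to 1.64 and A_68_P28875768 at 0.30 to 0.64 as line means, both with IP well above background on all 12 arrays. Its last 5 probes were lower in CC9mus, with line means of −1.81 to −1.07, than in the other lines, with −0.85 to 0.28. Of these 5, A_68_P28875774 and A_68_P28875776 passed the test described next. Island 11 (chr13:22072992-22073746, 8 probes) had means of 0.90 ± 0.78 (SD, n = 3) in CC9mus and −0.07 ± 0.08, −0.06 ± 0.11 and −0.17 ± 0.06 in CC9spretus, CC9dunni and CC9pahari. Its CC9mus arrays read 0.07, 1.02 and 1.61, and the first overlapped the other lines. Island 38 (chr13:23852673-23854295, 8 probes) read −0.84 to 0.45 over the 12 arrays, with all lines overlapping.

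**Figure D4:**
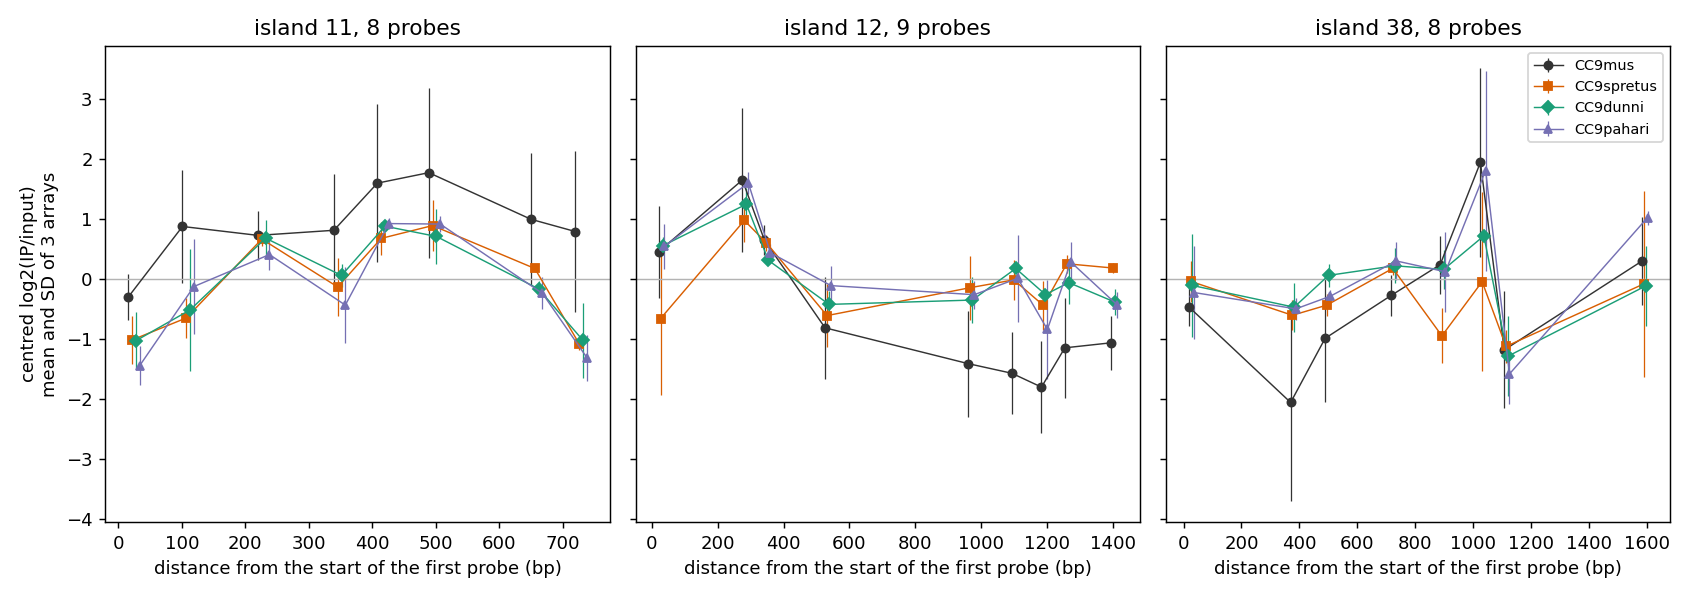
Centred log2(IP/input) of each probe (mean and SD of 3 arrays per line) against the distance from the start of islands 11, 12 and 38. In island 12 the last 5 probes were at −1.81 to −1.07 in CC9mus and at −0.85 to 0.28 in the other lines, while the first probes overlapped.

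Whether any line differed at these probes was tested in limma, each line against the mean of the other 3, with Benjamini-Hochberg adjustment over all 88737 probes. In CC9mus, 7 of 134 cluster probes (5.22%) passed an adjusted p of 0.05, against 4.57% of all probes, a share near the background. Of these 7, 3 were higher (2.76% of all probes) and 4 lower (1.81%). With arrays scaled to an equal spread, 16 passed, 11 higher and 5 lower, against 12.1% of all probes. The median difference of the cluster probes was 0.20 in CC9mus, −0.27 in CC9spretus, −0.02 in CC9dunni and 0.17 in CC9pahari, against −0.06, −0.02, −0.02 and 0.09 over all probes. The CC9spretus median was 0.006 without its replicate 1, against 0.018 over all probes, and −0.48 without its replicate 3, against −0.10. The CC9mus median was 0.037 with normexp, against −0.015 over all probes, and −0.18 with the scan period as a block, against −0.20. It was 0.36 with equal spread, against −0.047, and 0.34 without CC9spretus replicate 3, against −0.027. Without CC9mus replicate 1 it was 0.057, against −0.047. For CC9dunni it went from −0.16 with dim input left out, against −0.024, to 0.21 with dim IP raised to the floor, against −0.0098. For CC9pahari it went from 0.056 without its replicate 3, against 0.044, to 0.31 without CC9spretus replicate 3, against 0.11.

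The 3 rises were in islands 11, 21 and 27. At A_68_P28875603 (chr13:22073696-22073746, island 11) CC9mus read −0.25, 0.29 and 2.30, and the 9 other arrays −1.74 to −0.57 with a median of −1.10. The groups did not overlap, and the limma difference was 1.93 ± 0.46 (SE, adjusted p = 0.0446), or 1.17 without CC9mus replicate 3. At A_68_P28882321 (chr13:23668078-23668127, island 27) CC9mus read 0.16, 0.82 and 1.12, and the others −2.18 to −0.44 with a median of −0.74. All CC9mus arrays were above 0 and all others below, with a limma difference of 1.59 ± 0.34 (SE, adjusted p = 0.0413). The IP of these probes was well above background on all 3 CC9mus arrays but on only 2 and 3 of the 9 others, so the level of the other lines was mostly not measured. With dim IP raised to the floor the differences were 1.27 (adjusted p = 0.104 in limma) and 0.89 (0.108), and with normexp 0.55 (0.261) and 0.18 (0.635), none of which passed. By its construction the floor raises the dim arrays of the other lines and so tends to narrow these differences. At A_68_P28882076 (chr13:23636266-23636325, the only probe of island 21) CC9mus read −0.19, −0.09 and −0.01, and the others −3.17 to −0.78 with a median of −1.74. Its IP was not well above background on any of the 9 other arrays and on only 1 CC9mus array, so neither side was measured on most arrays and no difference is given. Without this probe 6 calls remain, 2 higher and 4 lower.

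The 4 falls were in islands 12 and 16, where neighbouring probes share the DNA fragments that reach them. At A_68_P28875774 (chr13:22098743-22098787) CC9mus read −0.87, −2.23 and −1.63, and the others −0.84 to 0.45 with a median of 0.16. CC9mus lay below all others, though by little for its replicate 1, and the limma difference was −1.63 ± 0.35 (SE, adjusted p = 0.0413). At A_68_P28881306 (chr13:23515429-23515473, island 16) CC9mus read −0.74, −2.77 and −1.80, and the others −0.50 to 0.12 with a median of −0.14. The limma difference was −1.62 ± 0.36 (SE, adjusted p = 0.042). The other members of each pair, A_68_P28875776 and A_68_P28881308, were named after their values were seen, with limma differences of −1.31 ± 0.34 (adjusted p = 0.0489) and −1.45 ± 0.27 (adjusted p = 0.0405). With normexp the 4 differences were −1.11 (A_68_P28875774), −0.45 (A_68_P28881306), −1.22 (A_68_P28875776) and −1.26 (A_68_P28881308), and none passed, with adjusted p between 0.0979 and 0.314 in limma. Without CC9mus replicate 2 that at A_68_P28875776 was −0.84. At all 4 probes the IP was well above background on all 9 arrays of the other lines and on 2 or 3 of the CC9mus arrays.

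**Figure D5:**
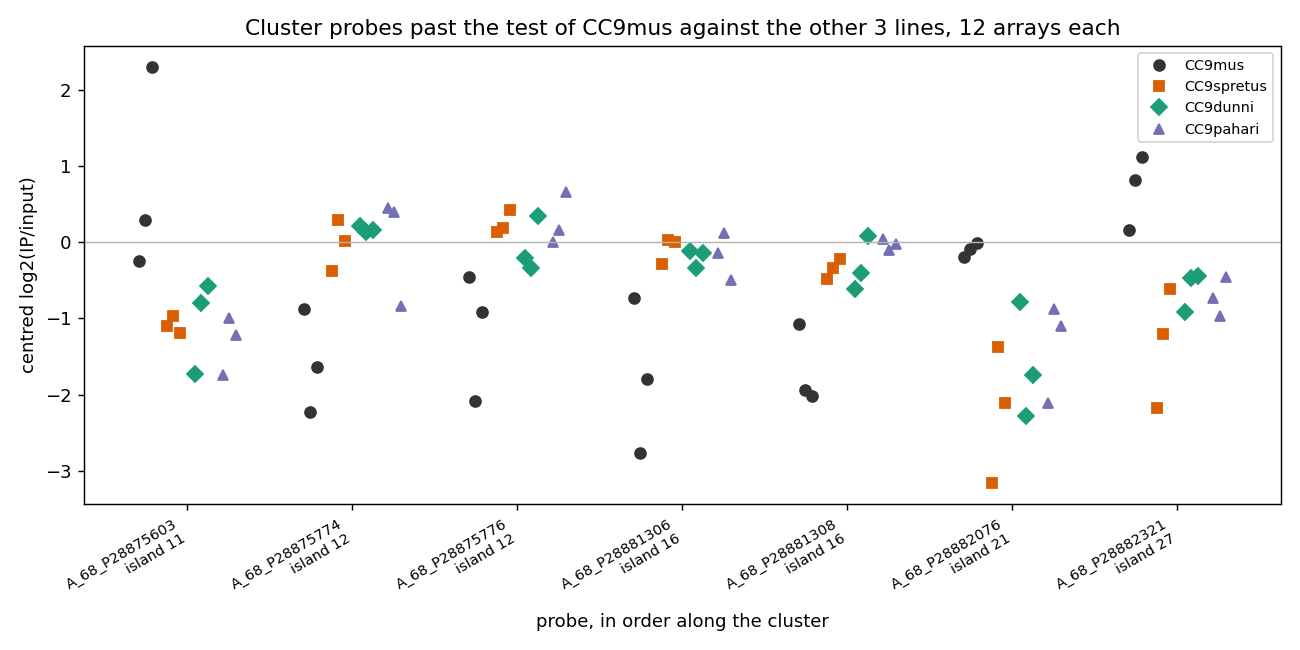
Centred log2(IP/input) on all 12 arrays of the 7 cluster probes with an adjusted p under 0.05 in CC9mus against the other 3 lines. The 3 CC9mus arrays (black circles) lay beyond the 9 others at each of them, above at 3 probes and below at 4.

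The 7 calls were lost under many alternatives. Leaving out CC9mus replicate 2 or replicate 3, or any array of another line, left 0 of 134 cluster probes past the limma test, and at most 0.14% of all probes. With any 1 array left out, the falls ran from −1.98 to −1.30 at A_68_P28875774 and from −1.65 to −0.84 at A_68_P28875776. They ran from −1.75 to −1.27 at A_68_P28881308 and from −2.13 to −1.12 at A_68_P28881306. The rises ran from 1.17 to 2.44 at A_68_P28875603 and from 1.38 to 1.86 at A_68_P28882321, where the other lines were mostly not measured. Leaving out CC9mus replicate 1 gave 33 cluster probes, against 40.4% of all probes. The ratios of that array had a spread of 0.53 (SD over all probes), against 1.09 to 2.01 on the others. With the scan period as a block, with the slide as a random block, or with normexp, none passed, against 0%, 0% and 0.027% of all probes. Calls were thus lost over the whole array under these settings, and not at cluster probes in particular. Within the later period the 7 differences, CC9mus minus the 3 other arrays, ran from −1.63 to 1.77. CC9mus lay beyond all other arrays at these probes, which fixes the signs. Over all cluster probes, the 3 CC9mus arrays lay above the 9 others at 6 (3.78% of all probes did so) and below at 4 (3.41%). The arrays of CC9spretus lay above all others at 2 (0.211%), those of CC9dunni at 2 (0.699%) and those of CC9pahari at 1 (0.579%), and none lay below all others (0.157%, 0.831% and 0.662% of all probes).

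No cluster probe passed the limma test in CC9spretus (0.00113% of all probes), CC9dunni or CC9pahari (0.0% each). At an unadjusted p under 0.05 there were 15 cluster probes in CC9spretus (11.2%, against 1.97% of all probes), 7 in CC9dunni (5.22%, against 4.85%) and 3 in CC9pahari (2.24%, against 3.23%). In CC9mus there were 27 (20.1%), against 28.9% of all probes. With one array left out this went from 20 (14.9%, against 22.2%, without its replicate 2) to 37 (27.6%, against 50%, without its replicate 1). The CC9spretus count was 4 without its replicate 1 (2.99%, against 0.827% of all probes), 36 without its replicate 3 (26.9%, against 3.45%), 4 of 80 with dim input left out (5%, against 1.19%) and 0 with normexp (against 0.873%). With one array left out the count in CC9dunni went from 1 (0.746%, against 1.7%, without its replicate 1, and 1 also without its replicate 2) to 21 (15.7%, against 19.5%, without CC9mus replicate 1). That in CC9pahari went from 2 (1.49%, against 2.37%, without CC9dunni replicate 1) to 9 (6.72%, against 15.4%, without CC9mus replicate 1). The largest differences in these lines did not pass. At 4 of the 6 probes with the largest differences, A_68_P28874212 (CC9spretus), A_68_P28874436 (CC9dunni), A_68_P28876041 and A_68_P28874262 (both CC9pahari), the IP was well above background on no array of the line and on at most 1 of the 12 arrays, so no difference is given. The other two were 0.81 in CC9spretus at A_68_P28875777 in island 12 (adjusted p = 1.0 in limma), with IP well above background on all 12 arrays, and −1.73 in CC9dunni at A_68_P28882318 in island 27 (adjusted p = 0.846). The latter had IP well above background on 1 CC9dunni array and all 9 others, and its difference was −2.75 without CC9dunni replicate 3, −0.28 with dim IP raised to the floor and 0.034 with normexp. No island of the cluster passed in any line (0 of 39, limma over 14579 islands, of which 0.00686% passed in CC9spretus and 0.0% in each other line). Islands at an unadjusted p under 0.05 numbered 7 in CC9mus (17.9%, against 32.3% of all islands) and 5 in CC9spretus (12.8%, against 1.45%). With one array left out the CC9mus count went from 7 (17.9%, against 28.8%, without CC9dunni replicate 1) to 11 (28.2%, against 29.4%, without CC9spretus replicate 3). The CC9spretus count was 0 without its replicate 1 (against 0.775% of all islands), 19 without its replicate 3 (48.7%, against 2.92%), 1 of 33 with dim input left out (3.03%, against 1.1%) and 0 with normexp (against 0.899%). There were 2 in CC9dunni (5.13%, against 3.27%) and 1 in CC9pahari (2.56%, against 3.68%), and with one array left out from 1 (against 1.09%, without CC9dunni replicate 1) to 5 (12.8%, against 21.1%, without CC9mus replicate 1) and from 0 (against 2.24%, without CC9dunni replicate 1) to 4 (10.3%, against 4.29%, without CC9spretus replicate 3). The lowest adjusted p of an island was 0.0514, in CC9mus at island 27.

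By a mean log2 ratio above 2 or below −2 (4-fold), cluster probes were called almost entirely as low, and with normexp hardly any were called. With dim IP raised to the floor, 7, 5, 11 and 10 cluster probes were above 2 in CC9mus, CC9spretus, CC9dunni and CC9pahari (3.73% to 8.21%, against 5.39% to 8.93% of all probes). Their share was below that of all probes in CC9mus and CC9spretus and above it in CC9dunni and CC9pahari. With the floor 2, 3, 0 and 0 were below −2 (1.49%, 2.24%, 0% and 0%, against 2.56%, 0.393%, 0.0417% and 0.00563% of all probes). The study's filter was not repeated. With a Z-score beyond 5 required as well, computed from the mean and SD of each whole array, 0 cluster probes were called in either direction in any line, but so were only 0.0192% to 0.106% of all probes above 2 and 0% below −2. Below −2 were 18 cluster probes (13.4%) in CC9spretus, against 1.08% of all probes on the array. In CC9dunni there were 8 (5.97%, against 0.586%) and in CC9pahari 3 (2.24%, against 0.124%), while the 4 in CC9mus (2.99%) compared with 3.25% of all. Above 2 there was 1 cluster probe in CC9mus, against 9.39% of all probes, and none in CC9spretus, CC9dunni and CC9pahari, against 5.16%, 5.32% and 4.71%. The 23 probes low in any line (17.2%, against 4.47% of all probes) lay in 16 islands. Of the 134, 8 probes (5.97%, against 0.498%) were low in at least 2 lines and none in all 4 (against 0.00451%). These counts varied between arrays of a line. In CC9spretus 45, 22 and 2 cluster probes were below −2 on replicates 1, 2 and 3, against 7.33%, 1.63% and 0.195% of all probes, and without replicate 1 the count by the mean fell from 18 to 6, while the share of all probes fell from 1.08% to 0.236%. Only 1 probe, A_68_P28882280 in island 25, was below −2 on all 3 arrays of a line, CC9spretus. With normexp, 2 probes were below −2 in CC9mus and none in the other lines.

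The probe with the lowest mean over the lines, A_68_P28874260 in island 3 (chr13:21813721-21813779), read −3.18, −3.54 and −1.29 in CC9spretus and −3.62, −3.25 and −1.71 in CC9dunni. In CC9pahari it read −2.81, −3.18 and −1.87 and in CC9mus −0.59, −2.26 and −0.33. In each of the 3 lines with divergent mtDNA, the arrays of the earlier period were lower than the array of the later one. Its input was well above background on 12 of 12 arrays and its IP on 4. It was named after its values were seen.

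Arrays of different lines correlated along the cluster, less than over the rest of the chromosome. Over the 134 probes the correlation between arrays of the same line and scan period had a median of 0.71 (6 pairs), and between arrays of different lines and the same period 0.59 (24 pairs). Between periods the medians were 0.56 within a line (6 pairs) and 0.51 between lines (30 pairs), and single pairs of different lines were as low as 0.25. Over the other chromosome 13 probes the medians were 0.84 and 0.84 within a period, and 0.78 and 0.68 between periods. These are correlations across probes of shared sequence, given as a description.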

How the data were processed

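DNA of 12 samples was compared on Agilent CpG island arrays, IP labelled with Cy5 and input with Cy3 throughout, and grouped by the line and replicate in their labels. Probe positions are on mm9, per the file headers. The authors processed the scans with Feature Extraction 11.0.1.1 (11.0.1.0 in the submitters' processing notes). Their deposited intensity values are background-subtracted and dye-normalised signals, and the log10 ratios of IP over input that the authors deposited served as an alternative. The authors' CytoGenomics and SPSS steps were not repeated. Here, log2(IP/input) was computed from the deposited intensities, spots flagged as outliers were dropped, and the median of each array was subtracted. The number of arrays and the signal over background limit the precision. For line differences, lmFit and eBayes of limma 3.58.1 were run under R 4.3.3 with a mean per line, 12 arrays and 8 residual degrees of freedom. The fit was tested on simulated data. Dim IP was raised, as an alternative, to the lowest IP signal well above background of its array. Named were islands with a probe above 2, the 5 highest and 5 lowest islands of at least 3 probes, the islands with most probes, and up to 3 rises and 3 falls per line. Alternatives were other background corrections, centrings, spreads, filters on dim signals, blocks and left-out arrays. Members and lists were chosen with earlier results of these data known.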

Additional observations from a re-analysis of the deposited data

Results flagged for a closer look

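The input signal of the cluster, relative to the other chromosome 13 probes and to the mean of each probe over the 12 arrays, went in opposite directions in CC9dunni and CC9pahari when taken as the median over probes. All 3 CC9dunni arrays were below 0, with a mean of −0.172 (log2), and all 3 CC9pahari arrays above 0, with a mean of 0.0391. The difference was not tested. The CC9dunni arrays read −0.15, −0.11 and −0.26 and the CC9pahari arrays 0.02, 0.07 and 0.03. CC9spretus read 0.39, 0.30 and −0.18 and CC9mus −0.06, −0.10 and 0.15, so both of these lines had arrays on either side of 0. With the mean over probes in place of the median, the CC9pahari arrays read 0.025, 0.091 and −0.10, with a mean of 0.0044, so that they no longer lay on one side of 0.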

How the results depend on the processing

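The gap of the cluster to the other chromosome 13 probes was −0.55 in CC9mus, −0.83 in CC9spretus, −0.50 in CC9dunni and −0.55 in CC9pahari, and leaving out one array at a time gave −0.70 to −0.45, −1.09 to −0.57, −0.53 to −0.46 and −0.59 to −0.46. With normexp background correction it was 0.11, −0.030, 0.12 and 0.14, in the same order of lines, turning the direction in CC9mus, CC9dunni and CC9pahari. With dim IP raised to the floor, which by its construction tends to raise the cluster, it was −0.061 in CC9mus, −0.47 in CC9spretus, 0.025 in CC9dunni and −0.14 in CC9pahari. With dim input and dim IP left out, which keeps 23 cluster probes and by its construction removes those with low IP, it was −0.014 in CC9mus, −0.068 in CC9spretus, −0.15 in CC9dunni and −0.070 in CC9pahari. Of the rest, only CC9dunni moved by more than the spread of its arrays, to −0.64 with equal spread, −0.69 with dim input left out, −0.63 with means, −0.60 with island means and −0.38 in the centromeric part alone. Leaving out dim input and dim IP together, and taking each part alone, were chosen after seeing the data. Except for the cases whose construction is stated, the cause was not tested.

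Counts past the threshold of 2 depended on nearly every choice. Above 2, the 1 probe of CC9mus became 0 without centring, with normexp, with the deposited ratio, with equal spread, with dim input left out, with the threshold on every array and with the Z-score. With dim IP raised to the floor there were 7 in CC9mus, 5 in CC9spretus, 11 in CC9dunni and 10 in CC9pahari (5.22%, 3.73%, 8.21% and 7.46%, against 8.93%, 5.39%, 6.04% and 5.49% of all probes), and with equal spread 1 in CC9dunni (against 7.65%). Of all probes, 2.13% to 2.77% were above 2 with normexp, 4.17% to 7.18% without centring, 4.7% to 9.27% with the deposited ratio, 3.74% to 7.65% with equal spread, 4.68% to 9.24% with dim input left out, 0.689% to 4.06% with the threshold on every array and 0.0192% to 0.106% with the Z-score. Below −2, CC9mus had 4 probes, and 7 without centring (5.22%, against 5.4% of all probes), 2 with normexp, 1 with equal spread, 2 with the IP floor, 0 with the threshold on every array and 0 with the Z-score. CC9spretus had 18, and 0 with normexp, 3 with the IP floor, 1 with the threshold on every array and 0 with the Z-score. CC9dunni had 8, and 0 with normexp, 15 with equal spread, 0 with the IP floor, 0 with the threshold on every array and 0 with the Z-score. CC9pahari had 3, and 0 with normexp, 7 with equal spread, 0 with the IP floor, 0 with the threshold on every array and 0 with the Z-score. The shares of all probes below −2, over the 4 lines, were 0% to 0.943% with normexp, 0.3% to 1.87% with equal spread, 0.00563% to 2.56% with the IP floor, 0% to 0.0304% with the threshold on every array and 0% with the Z-score. Leaving out one array gave below −2 a range of 1 to 13 in CC9mus, 6 to 37 in CC9spretus, 4 to 14 in CC9dunni and 1 to 8 in CC9pahari, and above 2 a range of 0 to 8, 0 to 1, 0 to 0 and 0 to 1, the 8 being without CC9mus replicate 1 (5.97%, against 17.7% of all probes) and each 1 standing against 5.37% to 6.23%. The highest counts below −2 came without CC9mus replicate 1 (13), CC9spretus replicate 3 (37), CC9dunni replicate 3 (14) and CC9pahari replicate 3 (8), against 10.8%, 3.46%, 2.74% and 0.533% of all probes.

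In limma, the 7 cluster probes of CC9mus became 0 with normexp (16 at an unadjusted p under 0.05, 11.9%, against 21.1% of all probes), 16 with equal spread (12.1% of all probes passed), 0 with the slide as a random block, 0 with the scan period as a block and 16 (11.9%, against 21.4% of all probes) with the scan period as a block and equal spread, and ranged from 0 to 33 with one array left out, 33 (24.6%, against 40.4%) being without CC9mus replicate 1. CC9dunni had 1 probe and 2 islands with the scan period as a block and equal spread, against 1.92% of all probes and 3.59% of all islands. The other counts of probes for CC9spretus, CC9dunni and CC9pahari were 0 under every setting. Islands of CC9mus, 0 at first, became 6 of 39 without centring (15.4%, against 7.89% of all islands), 7 with equal spread (17.9%, against 13.8%), 3 of 33 with dim input left out (9.09%, against 4.97%), 4 with the replicate block (10.3%, against 7.95%) and 7 with the scan period as a block and equal spread (17.9%, against 30%). They ranged from 0 to 7 with one array left out, 7 (17.9%, against 50.3%) being without CC9mus replicate 1. Islands of CC9spretus, CC9dunni and CC9pahari ranged from 0 to 0 with one array left out. The replicate block gave 10 cluster probes in CC9mus against 7, with 8.42% of all probes past the test. The labels give the replicate numbers no shared batch, and only 12 of 18 same-numbered pairs of arrays had deviations that correlated above 0.1 (range −0.38 to 0.54 over all probes), so the numbers were not taken as a pairing. Of the named differences, that at A_68_P28874262 in CC9pahari, with IP well above background on no array, turned to 0.23 and that at A_68_P28882318 in CC9dunni to 0.034 with normexp. The input signal of CC9mus, −0.0041, was 0.024 without its replicate 1, 0.044 without replicate 2 and −0.080 without replicate 3, and that of CC9pahari was 0.0044 with means. It ranged from 0.06 to 0.34 in CC9spretus, from −0.20 to −0.13 in CC9dunni and from 0.02 to 0.05 in CC9pahari.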
